A study of Mus musculus with 36 samples.

Results

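The Id and Hes/Hey genes encode 2 groups of nuclear proteins that hold back differentiation programs. The 10 genes followed here were Id1, Id2, Id3, Id4, Hes1, Hes5, Hes6, Hey1, Hey2 and Heyl, taken by gene symbol from 19938 genes measured on the array. Each of the 10 had a single probe set, so no choice between probe sets was needed. Id proteins have a helix-loop-helix domain without the basic region that binds DNA. They pair with E proteins, a group of basic helix-loop-helix activators, and keep them off DNA. Hes and Hey proteins do bind DNA and recruit corepressors, and several of their genes are classical targets of the Notch receptors. Hes6 is the exception in that it is known in mice to antagonise Hes1. Id1, Id2 and Id3 are well-known targets of BMP signalling, and TGF-β is known to change them in either direction depending on the cell. In the dendritic cell (DC) lineage of mice, Id2 is required for Langerhans cells and for some conventional DC, whereas the E protein E2-2 (gene Tcf4) is required for plasmacytoid DC.

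RNA was measured in 2 kinds of mouse blood progenitors, common dendritic progenitors (CDP), which give rise to DC, and multipotent progenitors (MPP), from which CDP derive. Both were grown out of bone marrow with cytokines, sorted by FACS and then kept without factor (0 h) or given TGF-β1 (recombinant human protein, 10 ng/ml) for 2, 4, 8, 12 or 24 h. Each cell type at each of the 6 times was measured on 3 Affymetrix Gene 1.0 ST arrays, 36 arrays in all, which the study calls biological replicates. Neither the labels nor the study's methods give a genotype, strain, sex or age for the mice these progenitors came from. The 36 arrays include no cells left untreated for the same hours. TGF-β1 and time in culture therefore cannot be told apart in a change against 0 h.

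Values are log2 intensities as deposited, and differences are on the same log2 scale with the standard error (SE) of the limma fit, with 3 arrays per group. A gene was called where its adjusted p (limma, Benjamini-Hochberg over all 19938 genes) was under 0.01 and its absolute log2 fold change was 1 or more. These limits follow the study's methods. A second, looser rule used the adjusted p alone. Levels are compared within a gene only, since the probe sets of different genes do not share a scale.

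Arrays of 1 group correlated at 0.985 or more. Between arrays of a group, the SD of the median gene was 0.0637 to 0.0817. The labels were set against markers at 0 h, where 2.81% of all genes were called in either direction. Of 10 DC progenitor markers, 5 were called higher in CDP than in MPP, among them Flt3 (2.14) and Cd74 (3.77). Of 7 measured progenitor markers, 4 were called lower, among them Kit (−2.67) and Cd34 (−1.04). Csf1r, which also defines CDP, differed by 0.15 (adjusted p = 0.332). Of the other DC progenitor markers, Csf2ra, Csf2rb, Spi1 and Irf8 were not called either (−0.28, 0.02, 0.15 and 0.32). Among the progenitor markers, Cd27, Meis1 and Sox4 were not called (−0.91, −0.18 and 0.18). Neutrophil and mast cell markers were lower in CDP: 7 of 8 and 3 of 6 were called. Monocyte and macrophage markers, averaged over 8 genes, lay at 8.44 to 9.06 in CDP at 24 h against 10.60 to 11.04 in CDP at 0 h, and at 9.86 to 10.26 in MPP at 24 h against 10.80 to 11.17 in MPP at 0 h. In these bulk samples, fewer cells of a type and less RNA per cell cannot be told apart. The part of these markers in the values of the repressors was not tested.

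The first comparison asks which of the repressors changed after TGF-β1. In CDP none of the 10 was called, and the change nearest to the limit among those past the limit on p was that of Id2, 1.72-fold higher at 24 h than at 0 h. In MPP Hes1 alone was called, 3.18-fold higher at 24 h. Id1 stood above 0 h at 2 h, by 0.39 in CDP (past the limit on p alone) and 0.37 in MPP (not past it), and was near its starting level at 4 h. Id3 was lower in MPP from 4 h on, also under the fold limit, while Id4, Hes5, Hey1, Hey2 and Heyl differed from 0 h by at most 0.25 on the log2 scale.

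Hes1 encodes a DNA-binding repressor that Notch signalling induces and that keeps neural progenitors, among others, from differentiating. In CDP it read 7.14, 7.30 and 7.35 at 0 h, 7.34, 7.39 and 7.47 at 2 h, 7.34, 7.63 and 7.40 at 4 h, 7.67, 7.43 and 7.35 at 8 h, 7.72, 7.56 and 7.53 at 12 h, and 7.89, 7.50 and 7.72 at 24 h (replicates 1, 2 and 3). Arrays of 2, 4 and 8 h overlapped with those of 0 h, and those of 12 and 24 h did not. The change was 0.34 ± 0.11 at 12 h (adjusted p = 0.0435) and 0.44 ± 0.11 at 24 h (0.00647), with a 95% interval of 0.21 to 0.67 at 24 h. It stayed under the fold limit, and replicate 1 gave the largest value at 24 h (0.75, against 0.20 and 0.37 in replicates 2 and 3).

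In MPP Hes1 climbed at every step. It read 7.21, 7.30 and 7.24 at 0 h, 7.77, 7.70 and 7.70 at 2 h, 7.84, 7.72 and 7.81 at 4 h, 8.28, 8.32 and 8.19 at 8 h, 8.62, 8.25 and 8.49 at 12 h, and 9.25, 8.65 and 8.86 at 24 h. Every array from 2 h on lay above every array of 0 h, and the 24 h arrays lay above all others. The change against 0 h was 0.47 ± 0.10 at 2 h (adjusted p = 0.00688), 0.54 ± 0.10 at 4 h (0.00184), 1.01 ± 0.10 at 8 h (2.76e-06), 1.20 ± 0.10 at 12 h (3.48e-07) and 1.67 ± 0.10 at 24 h (6.2e-09). Hes1 thus passed both limits at 8, 12 and 24 h, and at 2 and 4 h it passed the limit on p alone. Most of the rise came after 2 h, with 24 h above 2 h by 1.20 ± 0.10 (adjusted p = 5.39e-07, called). The call at 8 h sat on the fold limit and was lost without replicate 1 (0.98), without the first 0 h array of MPP (0.93) or without the second 8 h array of MPP (0.93), with adjusted p of at most 0.000195. The calls at 12 and 24 h held whichever array or replicate was left out.

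Id2, the member of the family most tied to DC, stood higher in CDP at each later time. In CDP its arrays read 13.12, 13.22 and 13.32 at 0 h, 13.39, 13.47 and 13.51 at 2 h, 13.48, 13.55 and 13.55 at 4 h, 13.68, 13.71 and 13.70 at 8 h, 13.82, 13.90 and 13.89 at 12 h, and 14.03, 13.88 and 14.10 at 24 h. All 3 arrays of each treated time lay above all 3 of 0 h, and the group means went up at every step. The change was 0.23 ± 0.05 at 2 h (adjusted p = 0.0204), 0.30 at 4 h (0.00171), 0.48 at 8 h (1.95e-05), 0.65 at 12 h (6.09e-07) and 0.78 ± 0.05 at 24 h (4.46e-08). None of these reached the fold limit: the 95% interval at 24 h was 0.67 to 0.90, which ends under 1. In MPP, Id2 read 12.37, 12.47 and 12.27 at 24 h, against 12.43, 12.64 and 12.73 at 0 h, and overlapped with 0 h at every time. The MPP change was −0.27 ± 0.08 at 4 h (adjusted p = 0.0344) and −0.23 ± 0.08 at 24 h (0.0544), so no change passed the test.

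**Figure D1:**
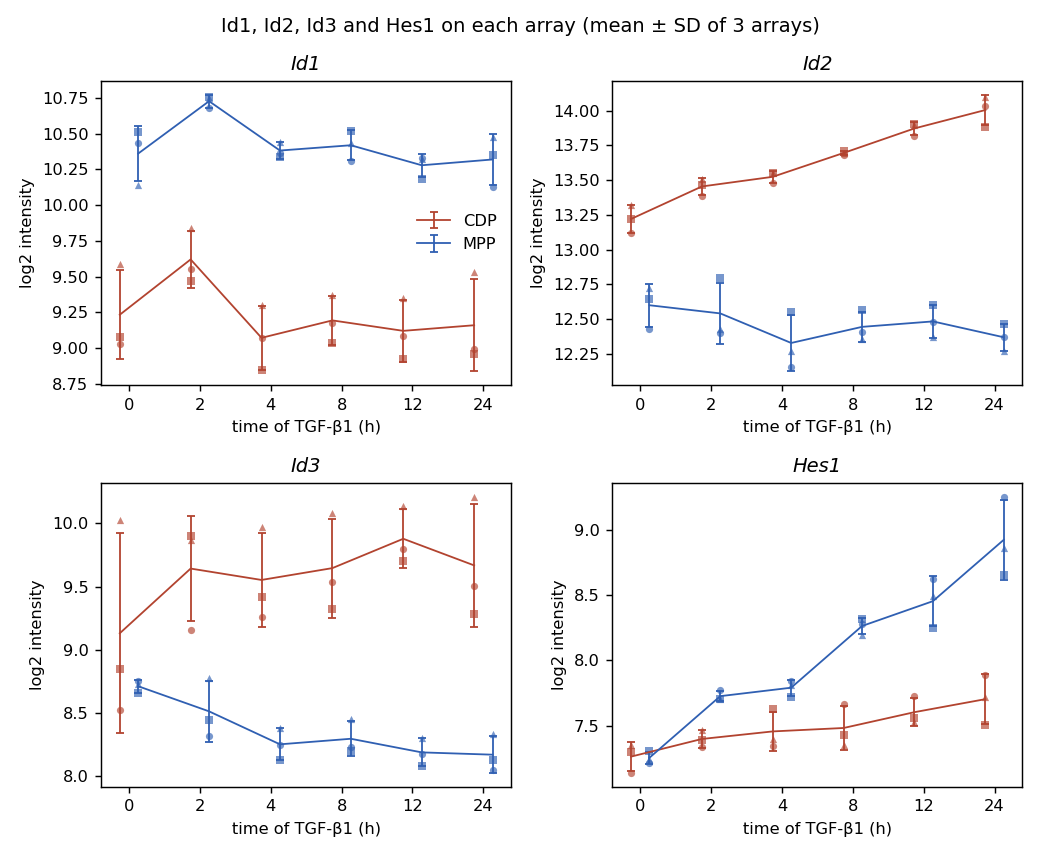
log2 intensity (y axis, a range of its own in each panel) of Id1, Id2, Id3 and Hes1 against the time of TGF-β1 in h (x axis, times set at equal steps), with CDP in red and MPP in blue. Points are arrays (circle, square and triangle for replicates 1, 2 and 3), lines join group means and bars are the SD of 3 arrays. Id2 in CDP reaches 14.03, 13.88 and 14.10 at 24 h, Hes1 in MPP reaches 9.25, 8.65 and 8.86, and Id1 has its highest mean at 2 h in both.

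Id1 had its highest mean at 2 h in both cell types. It encodes an Id protein that BMP-activated Smads induce directly. In CDP it read 9.03, 9.08 and 9.59 at 0 h, 9.55, 9.47 and 9.84 at 2 h, and 9.07, 8.84 and 9.30 at 4 h. In MPP it read 10.43, 10.51 and 10.14 at 0 h, 10.68, 10.76 and 10.75 at 2 h, and 10.37, 10.34 and 10.45 at 4 h. The 2 h arrays of MPP lay above all those of 0 h, and in CDP each 2 h array lay above its own 0 h array of the same replicate number (3 of 3 pairs) although the groups overlapped. The change at 2 h was 0.39 ± 0.07 in CDP (adjusted p = 0.00389) and 0.37 ± 0.09 in MPP (0.0252). The difference of 24 h minus 2 h was −0.46 ± 0.07 in CDP (adjusted p = 0.000127, 0.015 without replicate 2 and 0.0927 with no replicate block) and −0.41 ± 0.09 in MPP (0.0064, and 0.119 without replicate 1). No contrast of Id1 over time reached the fold limit. The difference between the responses at 2 h was 0.02 with a 95% interval of −0.23 to 0.27.

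Id3, a close relative of Id1, read above 0 h in CDP, where the replicates were split and no change passed the test, and below 0 h in MPP. In CDP it read 8.52, 8.85 and 10.02 at 0 h, 9.16, 9.90 and 9.87 at 2 h, 9.26, 9.42 and 9.98 at 4 h, 9.54, 9.32 and 10.08 at 8 h, 9.79, 9.70 and 10.14 at 12 h, and 9.50, 9.29 and 10.21 at 24 h. Replicates 1 and 2 were higher at every treated time than at 0 h, by 0.44 to 1.28, while replicate 3 started high and moved by −0.16 to 0.19, so the groups overlapped with 0 h throughout. The CDP change was 0.75 ± 0.20 at 12 h (adjusted p = 0.0154) and 0.54 ± 0.20 at 24 h (0.0584), neither under 0.01. Without replicate 3 the change at 12 h was 1.06, which was called (adjusted p = 0.00663), and without the third 0 h array of CDP alone it was 1.01 (0.00178). In MPP Id3 read 8.75, 8.65 and 8.73 at 0 h, 8.31, 8.44 and 8.78 at 2 h, 8.24, 8.13 and 8.38 at 4 h, 8.23, 8.20 and 8.45 at 8 h, 8.18, 8.08 and 8.30 at 12 h, and 8.05, 8.13 and 8.33 at 24 h. From 4 h on every treated array lay under every 0 h array. The MPP change was −0.46 ± 0.07 at 4 h (adjusted p = 0.000254) and −0.54 ± 0.07 at 24 h (2.17e-05), which passed the limit on p alone. In a fit over all 36 arrays, whose spread includes CDP, the Id3 change in MPP at 24 h had an adjusted p of 0.0205.

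The third replicate of CDP also stood apart in interferon-stimulated genes. Their mean over 9 of 10 listed genes lay at 8.91 to 12.90 on the CDP arrays of replicate 3 and at 7.58 to 10.65 on those of replicates 1 and 2. The mean of 12.90 was that of the 2 h array of replicate 3, in the group with the lowest correlation between arrays. On the MPP arrays it also reached higher in replicate 3, at 7.84 to 9.04 against 7.56 to 8.41 in replicates 1 and 2. At 0 h it was 10.62 on the CDP array with the high Id3 value, against 8.32 and 8.09 on the other two. At 4 h, CDP replicate 1 had 10.65 in these genes and the lowest Id3 value of its group (9.26). The part of the interferon-stimulated genes in the Id3 values was not tested.

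**Figure D2:**
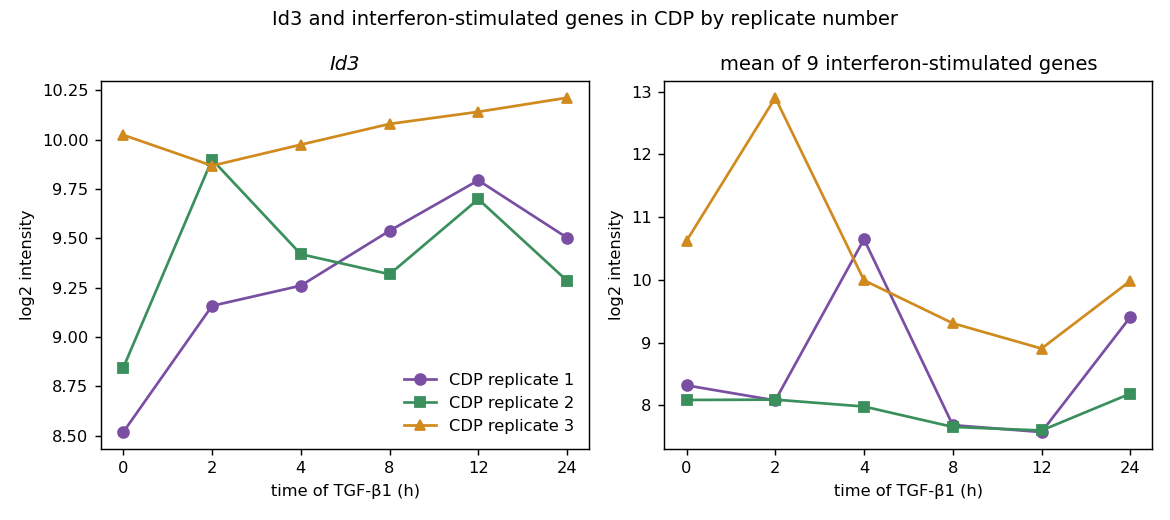
log2 intensity of Id3 (left) and the mean log2 intensity of 9 interferon-stimulated genes (right) in CDP against the time of TGF-β1 in h (equal steps), with a line for each replicate number. Replicate 3 starts at 10.02 for Id3 and at 10.62 for the interferon-stimulated genes, above replicates 1 and 2 in both panels at 0 h.

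Hes6 was higher in CDP in the middle of the time course. It read 10.38, 10.21 and 10.21 at 0 h, 10.52, 10.30 and 9.97 at 2 h, 10.61, 10.45 and 10.58 at 4 h, 10.91, 10.34 and 10.73 at 8 h, 10.82, 10.63 and 10.65 at 12 h, and 10.46, 10.44 and 10.50 at 24 h. The arrays of 4, 12 and 24 h lay above those of 0 h. The change was 0.39 ± 0.11 at 8 h (adjusted p = 0.0213) and 0.43 ± 0.11 at 12 h (0.0109), and neither passed the limit. In MPP the change at 24 h was 0.22 ± 0.05 (adjusted p = 0.00995), small and at the limit on p.

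The other 5 members passed no test against 0 h in either cell type. Id4, a relative of Id1 best known in the nervous system, read 6.99 to 7.32 over all CDP arrays and 6.96 to 7.14 over all MPP arrays. Hes5, a Notch target of neural progenitors, read 8.66 to 8.92 in CDP and 8.51 to 8.92 in MPP. The Hey genes are Notch targets of the heart and vessels, and Heyl read 7.39 to 7.70 in CDP and 7.34 to 7.69 in MPP. Hey2, which was among the dimmest 30% of genes, read 5.99 to 6.26 in CDP and 5.95 to 6.21 in MPP. Over these 5 genes and 5 times the changes in CDP ran from −0.10 to 0.13, with the lowest adjusted p at 0.29, and in MPP from −0.14 to 0.25. No 95% interval reached beyond −0.22 and 0.27 in CDP or −0.30 and 0.41 in MPP, so a change in intensity as large as the fold limit lay outside all of them. Id4, Hey1 and Hey2 read under the array medians of all probe sets (7.49 to 7.66) on every array, as did Hes1 at 0 h. Whether these probe sets read above background was not tested, and near background a change in RNA can show as a smaller one. The value furthest from 0 was that of Hey1 in MPP, which read 7.24, 6.99 and 6.85 at 24 h against 6.83, 6.75 and 6.75 at 0 h (0.25 ± 0.08, adjusted p = 0.0342).

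**Figure D3:**
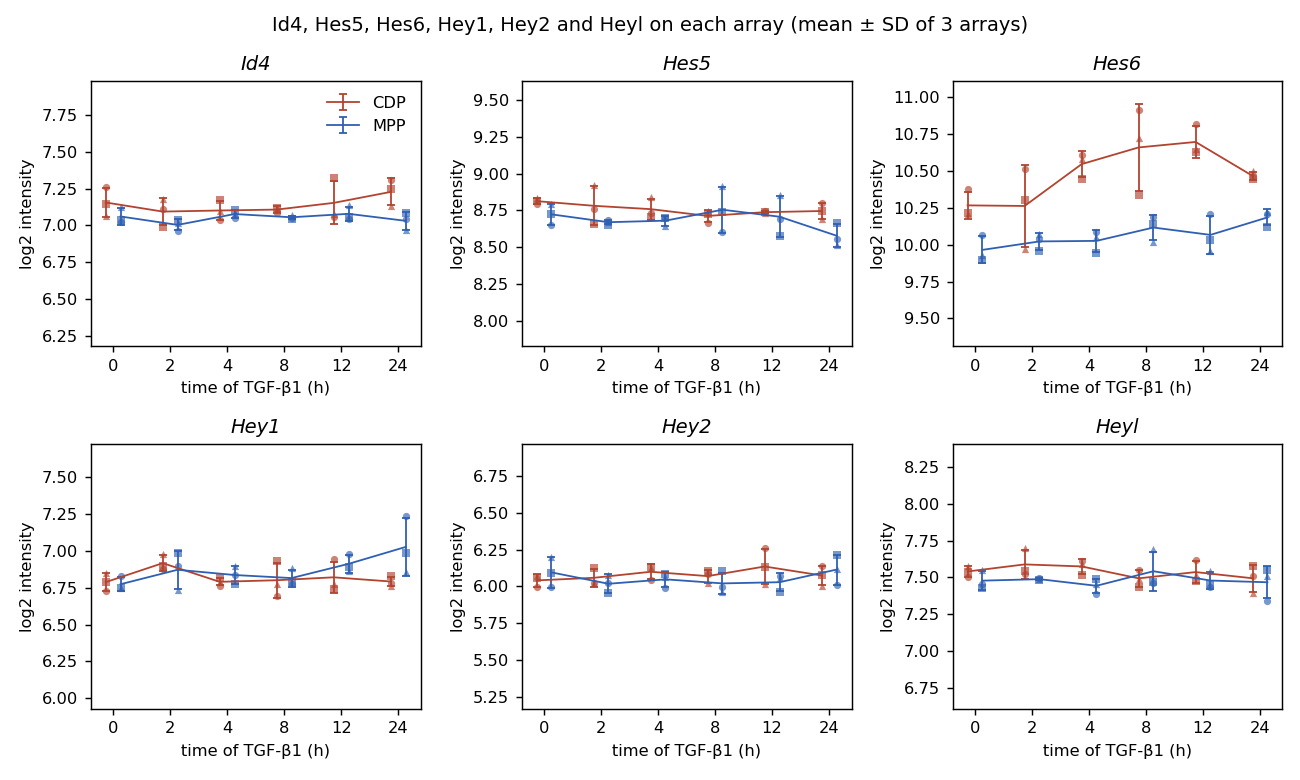
log2 intensity (y axis, each panel spanning the same height in log2 units) of Id4, Hes5, Hes6, Hey1, Hey2 and Heyl against the time of TGF-β1 in h (equal steps), CDP in red and MPP in blue. Points are arrays, lines join means and bars are the SD of 3 arrays. Hes6 in CDP reaches 10.82, 10.63 and 10.65 at 12 h, while the changes of the other 5 genes run from −0.10 to 0.13 in CDP and from −0.14 to 0.25 in MPP.

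In CDP, calls over all genes made up 0.326% at 2 h, 0.702% at 4 h, 1.27% at 8 h, 1.86% at 12 h and 3.14% at 24 h, and 2.3% for 24 h against 2 h. Of the 10 repressors, 0 were called in each of these limma contrasts, and 3, 3, 3, 4 and 3 had an unadjusted p under 0.05 at 2, 4, 8, 12 and 24 h, and 3 for 24 h against 2 h. The share of all genes at an unadjusted p under 0.05 is not given here or below, so such counts are no result about these genes. By the adjusted p alone 1 of 10 passed at 2 h (Id1, against 1.93% of all genes), 1 at 4, 8 and 12 h (Id2, against 4.84%, 9.51% and 11.7%) and 2 at 24 h (Id2 and Hes1, against 19.8%). The moderated F-test of limma over the time course called 0 of 10 against 3.43% of all genes, with 5 of 10 at an unadjusted p under 0.05, and by its adjusted p alone 2 of 10 passed (Id2, 3.59e-07, and Id1, 0.000201), against 20.6%.

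In MPP, of all 19938 genes, 0.271% were called at 2 h, 0.416% at 4 h, 0.657% at 8 h, 0.737% at 12 h and 1.2% at 24 h, and 0.602% for 24 h against 2 h. Of the 10 repressors, 0 were called at 2 and 4 h and 1 at each later time. At an unadjusted limma p under 0.05 the counts were 3 of 10 at 2 h and 3 at 4 h, again with no share of all genes beside them. In the moderated F-test over the whole time course, 1 of the 10 (Hes1, adjusted p = 6.74e-08) was called, against 1.33% of all genes. By the adjusted p alone 2 of the 10 passed this test (Hes1 and Id3), against 12.9% of all genes. By the adjusted p alone at single times, 1 of 10 passed at 2 h (Hes1, against 3.27% of all genes), 2 at 4, 8 and 12 h (Hes1 and Id3, against 5.04%, 9.17% and 8.31%) and 3 at 24 h (with Hes6, against 9.71%). The median change of the 10 repressors at 24 h was 0.05 in CDP, where that of all genes was 0.00, and −0.02 in MPP, where that of all genes was −0.01.

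Some values that passed on p alone did so by a narrow margin. In CDP the adjusted p went up to 0.0877 for Hes1 at 24 h (without replicate 1), 0.133 for Id1 at 2 h (without replicate 2) and 0.0918 for Id2 at 4 h (without replicate 1), and in a fit with no replicate block to 0.501 for Id1. In MPP it went up to 0.0785 for Hes1 at 2 h and 0.0369 at 4 h (both without replicate 3), and 0.114 for Hes6 at 24 h (without replicate 2). For Id3 in MPP it went up to 0.0352 at 4 h, 0.0316 at 8 h and 0.011 at 12 h, all without replicate 2. Id2 in CDP at 8, 12 and 24 h and Id3 in MPP at 24 h passed whichever array or replicate was left out.

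The second comparison asks whether the response differed between CDP and MPP. It did for 3 of the 10 repressors at 24 h, where 1.85% of all genes were called. Hes1 was the gene with the weaker response in CDP, with a CDP minus MPP difference of −1.23 ± 0.15 (95% interval −1.55 to −0.91, adjusted p = 1.71e-06), a call that held whichever array or replicate was left out. Id2 and Id3 went the opposite way, with the CDP change above the MPP change by 1.01 ± 0.09 (0.82 to 1.21, adjusted p = 1.46e-08) and by 1.08 ± 0.22 (0.63 to 1.53, adjusted p = 0.000887). For both Id genes the estimate was positive in CDP and negative in MPP.

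The Hes1 difference was −0.79 at 8 h (adjusted p = 0.00268) and −0.86 at 12 h (0.000649), both under the fold limit. Without replicate 3 neither passed the limit on p (adjusted p = 0.138 and 0.076). The Id2 difference was 0.58 at 4 h (adjusted p = 0.00097), 0.63 at 8 h (0.00014) and 0.77 at 12 h (4.89e-06), also under the fold limit. At 24 h the Id2 difference sat on the fold limit. Without replicate 1 the adjusted p was 0.117 at 4 h and 0.0147 at 8 h, and with no replicate block it was 0.0592 and 0.0126. Leaving out replicate 3 or the third 0 h array of MPP gave 0.91 for Id2, and leaving out the 24 h array of MPP replicate 2 or 3, the 0 h array of CDP replicate 1, or the 24 h array of CDP replicate 1 or 3 gave 0.97 to 0.99, with an adjusted p of at most 3.41e-05. The Id3 difference was called at 12 h as well (1.27 ± 0.22, adjusted p = 0.000433), where 0.727% of all genes were. It was lost without replicate 1 (0.98 at 12 h and 0.78 at 24 h) and without replicate 2 (1.20, adjusted p = 0.0232, and 1.14, 0.0105), and at 24 h without the first 0 h array of CDP (0.89). It was lost too in a fit with no replicate block (adjusted p = 0.0957 and 0.0873). No repressor was called at 2, 4 and 8 h but for Id3 at 8 h without replicate 3 (1.24) or, at 4 and 8 h, without the third 0 h array of CDP (1.14 and 1.19). At these times 0.0301%, 0.14% and 0.411% of all genes were called, and 3 of the 10 repressors had an unadjusted p under 0.05 at each. The share of all genes at that unadjusted limit is not given. For Id1 the difference at 24 h was −0.03 with a 95% interval of −0.28 to 0.22. For Hey1 it was −0.25 (adjusted p = 0.119).

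**Figure D4:**
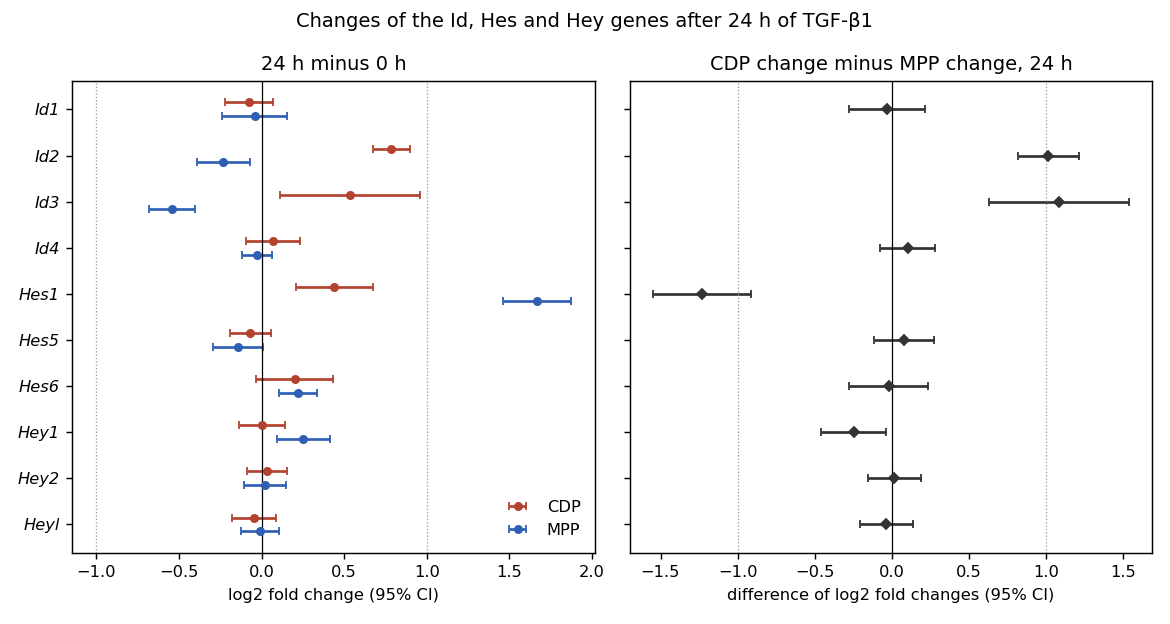
log2 fold change at 24 h against 0 h (left, CDP in red, MPP in blue) and the CDP change minus the MPP change at 24 h (right) for the 10 genes, with points for limma estimates, bars for 95% intervals and dotted lines at a log2 value of −1 and 1. Hes1 stands out in MPP at 1.67, and on the right Hes1 lies at −1.23, Id2 at 1.01 and Id3 at 1.08.

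Id2 and Id3 are the members with the same direction of difference, and their promoters are shown for that reason, with that of Hes5 as a Notch target that stayed flat. The RefSeq promoters (build GRCm38.p6, 250 bases before to 50 after the start site, written 5′ to 3′ along the gene) were matched for 6 of the 10 genes. Capitals mark 3 words searched on both strands: the Smad box CAGAC, the GC-rich Smad word GGCGCC, and the word TGGGAA of the Notch factor RBPJ. No 2 matches of these words overlap in the promoters shown.
Id2, chr12:25096043-25096342, minus strand: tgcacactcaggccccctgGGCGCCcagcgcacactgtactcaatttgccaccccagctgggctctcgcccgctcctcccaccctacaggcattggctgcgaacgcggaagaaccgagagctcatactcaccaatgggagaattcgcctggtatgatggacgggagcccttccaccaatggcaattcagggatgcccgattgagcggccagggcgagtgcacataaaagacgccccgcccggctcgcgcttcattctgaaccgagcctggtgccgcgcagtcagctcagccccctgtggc
Id3, chr4:136143572-136143871, plus strand: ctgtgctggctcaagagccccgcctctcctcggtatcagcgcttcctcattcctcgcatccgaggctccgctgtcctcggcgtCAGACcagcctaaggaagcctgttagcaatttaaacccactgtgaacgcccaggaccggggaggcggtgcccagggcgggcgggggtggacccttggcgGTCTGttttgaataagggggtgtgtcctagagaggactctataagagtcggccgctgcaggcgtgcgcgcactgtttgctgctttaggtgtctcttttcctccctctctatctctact
Hes5, chr4:154960673-154960972, plus strand: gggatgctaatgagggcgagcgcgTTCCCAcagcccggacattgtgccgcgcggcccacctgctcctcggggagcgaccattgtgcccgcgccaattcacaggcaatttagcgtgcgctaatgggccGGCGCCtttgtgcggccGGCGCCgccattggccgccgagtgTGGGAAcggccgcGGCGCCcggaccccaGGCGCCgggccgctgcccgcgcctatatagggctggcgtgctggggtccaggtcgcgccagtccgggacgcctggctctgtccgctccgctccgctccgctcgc

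The Id3 promoter held 2 copies of CAGAC, with their first bases at −167 and −68 from the start site (counted as 0), and none of the other words. CAGAC was present in 49.6% of all 32851 promoters of this length. The Id2 promoter held 1 GGCGCC, as did 11.9% of promoters, and no CAGAC. The Hes5 promoter held 4 copies of GGCGCC and 2 of TGGGAA, a word present in 25.6% of promoters. Among the others, Id4 held 1 GGCGCC and 1 TGGGAA, Hey2 held 1 and 2 of them, and each of the 2 promoters of Hes6 held 1 CAGAC. The words bound by the proteins of these pathways were searched as well, on both strands. CANNTG, the E-box bound by E proteins, was found once each in Id2, Hes5 and Hey2, and 1 and 3 times in the 2 promoters of Hes6. It was present in 72.3% of all promoters. CACNAG, the N-box bound by Hes proteins, was found in Id2, Id4 and 1 promoter of Hes6, as in 42.5% of all promoters. These matches are descriptions of the letters only.

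The third comparison sets the level in CDP against that in MPP at each time. Its fit has no replicate block and counts arrays of the same replicate number at different times as independent. Residuals of such arrays correlated (median 0.481 in CDP and 0.535 in MPP), so the p-values of the level can be too small. Id1 was lower in CDP at all 6 times, and Id2 was called higher in CDP from 4 h on and Id3 from 2 h on. At 0 h Id1 was the only repressor called, and at 24 h there were 4 (Id1, Id2, Id3 and Hes1). Of all genes, 2.81%, 3.1%, 3.12%, 3.35%, 3.73% and 5.06% were called at 0, 2, 4, 8, 12 and 24 h, against 1, 2, 3, 3, 3 and 4 of the 10 repressors.

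For Id1 the CDP level minus the MPP level was −1.13 ± 0.15 at 0 h (adjusted p = 1.28e-06), and −1.11, −1.31, −1.23, −1.16 and −1.16 at 2, 4, 8, 12 and 24 h. The 18 CDP arrays lay between 8.84 and 9.84 and the 18 MPP arrays between 10.13 and 10.76, with no overlap. The call at 0 h was lost without replicate 1 (−0.99) or replicate 2 (−0.98). Markers of granulocytes, like Id1, were lower in CDP than in MPP. The mean of 8 neutrophil genes was 8.06 to 9.69 on CDP arrays and 12.45 to 13.26 on MPP arrays. That of 6 mast cell genes was 6.15 to 6.59 on CDP arrays and 8.24 to 8.93 on MPP arrays. Over time, the neutrophil mean in CDP lay at 9.21 to 9.69 at 0 h and at 8.06 to 8.48 at 24 h. The Id1 mean in CDP was 9.23 at 0 h and 9.16 at 24 h. The part of these markers in the Id1 level was not tested.

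For Id2 the CDP level lay above the MPP level by 0.62 ± 0.10 at 0 h (adjusted p = 1.19e-05) and by 0.91 at 2 h, under the fold limit, and by 1.20, 1.25, 1.39 and 1.64 at 4, 8, 12 and 24 h, all called, the last with an adjusted p of 6.28e-14. This is a 3.11-fold difference at 24 h against a 1.54-fold difference at 0 h, and all CDP arrays lay above all MPP arrays of the same time. The value at 2 h passed the limit without replicate 2 (1.03) or without the second 2 h array of MPP (1.04). For Id3 the groups overlapped at 0 h (0.42 ± 0.27, adjusted p = 0.318) and were apart from 2 h on, at 1.13, 1.30, 1.35, 1.69 and 1.50 (adjusted p = 0.00242 at 2 h and 1.69e-05 at 12 h). The Id3 calls at 2, 4 and 8 h were lost without replicate 1 (adjusted p = 0.0229, 0.0107 and 0.0129) or replicate 2 (0.103, 0.0271 and 0.0169), and that at 2 h also without the 2 h array of CDP replicate 2 or 3 or of MPP replicate 1 or 2 (1.00 to 1.10).

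Hes1 started level in the 2 cell types and came apart. The CDP level differed from the MPP level by 0.01 ± 0.11 at 0 h, with a 95% interval of −0.23 to 0.24. The difference was −0.78 at 8 h (adjusted p = 4.23e-06), −0.85 at 12 h (1.03e-06) and −1.22 ± 0.11 at 24 h (9.68e-10), the last called. From 2 h on no CDP array reached any MPP array of the same time. Hes6 was higher in CDP by 0.52 at 4 h (adjusted p = 0.000542), 0.54 at 8 h (0.000332) and 0.63 at 12 h (4.73e-05), under the fold limit. With a replicate number left out the adjusted p went up to 0.0109 at 4 h (without replicate 2) and 0.0189 at 8 h (without replicate 3). From high to low, the mean Hes1 levels of the 12 groups ran through MPP at 24, 12, 8, 4 and 2 h, then CDP at 24, 12, 8, 4, 2 and 0 h, then MPP at 0 h. Neighbours in this order had overlapping arrays, except MPP at 24 and 12 h and MPP at 8 and 4 h.

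Among genes whose group means spanned 1 log2 unit or more (2097 genes), those most like Hes1 over the 12 group means were Art4, a cell surface ADP-ribosyltransferase (Pearson r = 0.987), Sec14l2, a lipid-binding protein (0.970), and Rab37, a small GTPase of vesicle traffic (0.951). The 12 means share arrays within a time course, so r is a description. In CDP the changes of Art4, Sec14l2 and Rab37 at 24 h were 0.14 (adjusted p = 0.19), 0.77 (0.000142) and 0.55 (0.000101), all under the fold limit. In MPP all 3 rose at 24 h, by 1.07 ± 0.09, 1.71 ± 0.12 and 1.24 ± 0.09. Among the repressors themselves, Id2 and Id3 had an r of 0.974 over the 12 means and of 0.801 and 0.823 over the 6 means of CDP and of MPP. Id1 and Id2 had an r of −0.931 over the 12 means, which were set apart by cell type, and of −0.381 and 0.334 within CDP and within MPP.

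Around the repressors, 9 lists of partner and pathway genes held 105 genes, of which 101 were measured. In CDP 14 of them were called against 0 h at some time, in MPP 7, and 15 in either. Of all genes, 3.52% were called at some time in CDP and 1.35% in MPP. The lists were chosen with earlier results of these data known.

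At 24 h, 3.14% of all genes were called in CDP and 1.2% in MPP. Of 10 Notch receptors and ligands, Notch1 alone was called: it fell in CDP at 24 h (−1.60 ± 0.21, adjusted p = 3.27e-05), to a mean of 9.49 ± 0.55 against 11.09 ± 0.04 at 0 h (SD, n = 3). In MPP Notch1 was 0.97 ± 0.09 above 0 h at 2 h, just under the fold limit, and 0.30 ± 0.09 at 24 h (0.0357). The responses differed at 24 h by −1.91 ± 0.24 (adjusted p = 1.85e-06). Of 13 measured genes of Notch processing and trafficking, 0 were called at any time in either cell type (limma), and 10 in CDP and 8 in MPP had an unadjusted p under 0.05 at some time. No share of all genes at the unadjusted limit is given beside these counts. Of 14 nuclear factors and corepressors, 1 was called: Tle1, a Groucho-type corepressor that Hes proteins recruit, rose in MPP by 1.01 ± 0.07 at 24 h (adjusted p = 8.57e-08), and the value was 0.88 without replicate 3. In CDP Tle1 was 0.33 ± 0.09 above 0 h at 24 h (adjusted p = 0.0161). The median change of this list at 24 h was 0.07 in CDP and 0.11 in MPP, where those of all genes were 0.00 and −0.01.

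Among 5 other Hes and Bhlhe repressors, Bhlhe40, a relative of the Hes genes that responds to many signals, was called at all 5 times in CDP. It rose by 1.06 ± 0.16 at 2 h (adjusted p = 0.00137) and by 1.81 ± 0.16 at 24 h (9.52e-07). Its mean was 11.97 ± 0.24 at 24 h, against 10.16 ± 0.37 at 0 h (SD, n = 3). The calls at 2, 4, 8 and 12 h were lost without replicate 1 (adjusted p = 0.0509, 0.055, 0.0177 and 0.0128), and those at 2, 4 and 8 h without replicate 3 (0.79, 0.93 and 0.97), while that at 24 h held. In MPP Bhlhe40 was 0.74 ± 0.10 above 0 h at 2 h (adjusted p = 0.000197) and 0.39 ± 0.10 at 24 h, and the responses differed at 24 h by 1.42 ± 0.20 (1.17e-05).

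The direct partners of the Id proteins were looked at for their role, after their values were seen. The E protein gene Tcf4 was lower in CDP at 24 h (−0.46 ± 0.05, adjusted p = 1.03e-05), with a mean of 11.43 ± 0.06 against 11.89 ± 0.18 at 0 h (SD, n = 3), and in MPP it differed by −0.01 ± 0.06. Tcf3, which encodes E2A, was lower in CDP (−0.48 ± 0.05, adjusted p = 4.81e-06) and differed by 0.04 ± 0.08 in MPP. Tcf12, the third E protein gene, differed by 0.17 ± 0.05 in CDP (0.0168) and by 0.09 ± 0.05 in MPP. None of these E protein changes reached the fold limit. Of the 9 E proteins and their partners, Lyl1 alone was called: this bHLH partner of E proteins in blood progenitors fell in CDP at 24 h (−2.24 ± 0.10, adjusted p = 1.32e-09) and differed by 0.03 ± 0.09 in MPP. The list's median change at 24 h was −0.22 in CDP and 0.04 in MPP.

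Of 21 BMP ligands, receptors and Smads, 2 were called at some time in CDP and 1 in MPP, against 3.52% and 1.35% of all genes. Smad6, an inhibitory Smad that BMP signalling induces, rose in CDP by 1.38 ± 0.08 at 2 h (adjusted p = 1.11e-07) and by 1.06 ± 0.08 at 4 h, and was 0.45 ± 0.08 above 0 h at 24 h. In MPP it was 0.90 ± 0.07 above 0 h at 2 h and 0.61 ± 0.07 at 24 h, under the fold limit. The CDP call at 4 h was lost without replicate 1 (0.98). Eng, which encodes the TGF-β co-receptor endoglin, rose in CDP at 8 and 12 h (1.09 and 1.21) and in MPP at 12 and 24 h (1.07 and 1.06), and without replicate 1 it was 0.98 at 8 h in CDP and 0.99 and 0.96 in MPP. Of 6 measured inhibitors of cyclin-dependent kinases, often named as targets of Id and E proteins, 0 were called in limma at any time in either cell type, against the same shares of all genes, and 4 in CDP and 5 in MPP had an unadjusted p under 0.05 at some time. For the unadjusted counts no share of all genes is given.

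DC genes moved in both directions, and at 24 h the share of all genes called higher and lower was 1.35% and 1.79% in CDP and 0.717% and 0.487% in MPP. Of 11 measured plasmacytoid DC genes of the E2-2 program, 3 fell in CDP at 24 h: Tlr7, a sensor of RNA (−2.16 ± 0.29, adjusted p = 5.28e-05), Cox6a2, a cytochrome c oxidase subunit (−1.38 ± 0.08, 1.38e-08), and Spib, an Ets factor (−1.11 ± 0.29, 0.00961). The Spib call was lost without any 1 replicate number, with −0.60 without replicate 2, in a fit with no replicate block (adjusted p = 0.0177), with trended robust variances (0.0287) and with every probe set fitted on its own. The surface lectin gene Siglech rose, by 3.22 ± 0.14 in CDP and 1.53 ± 0.13 in MPP. Cox6a2 also fell in MPP (−1.05 ± 0.09), a call lost without replicate 1 (−0.97) and with no replicate block (0.0207). The list's median change at 24 h was 0.02 in CDP and −0.01 in MPP.

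Of 12 conventional DC and Langerhans cell genes, 5 rose in CDP at 24 h. They were the adhesion gene Cdh1 (4.00 ± 0.24), the receptor tyrosine kinase gene Axl (3.71 ± 0.28), the Langerhans cell marker Epcam (2.52 ± 0.08), the chemokine receptor gene Ccr6 (2.34 ± 0.18) and the integrin gene Itgax (1.91 ± 0.08). In MPP 3 of the 12 rose at 24 h, Axl (3.23 ± 0.09), Itgax (2.75 ± 0.11) and Cdh1 (1.04 ± 0.13, with 0.83 without replicate 1). The list's median change was 0.84 in CDP and 0.02 in MPP, where those of all genes were 0.00 and −0.01. Epcam differed by 0.12 ± 0.07 in MPP, and the responses differed by 2.40 ± 0.11 (adjusted p = 1.17e-13).

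**Figure D5:**
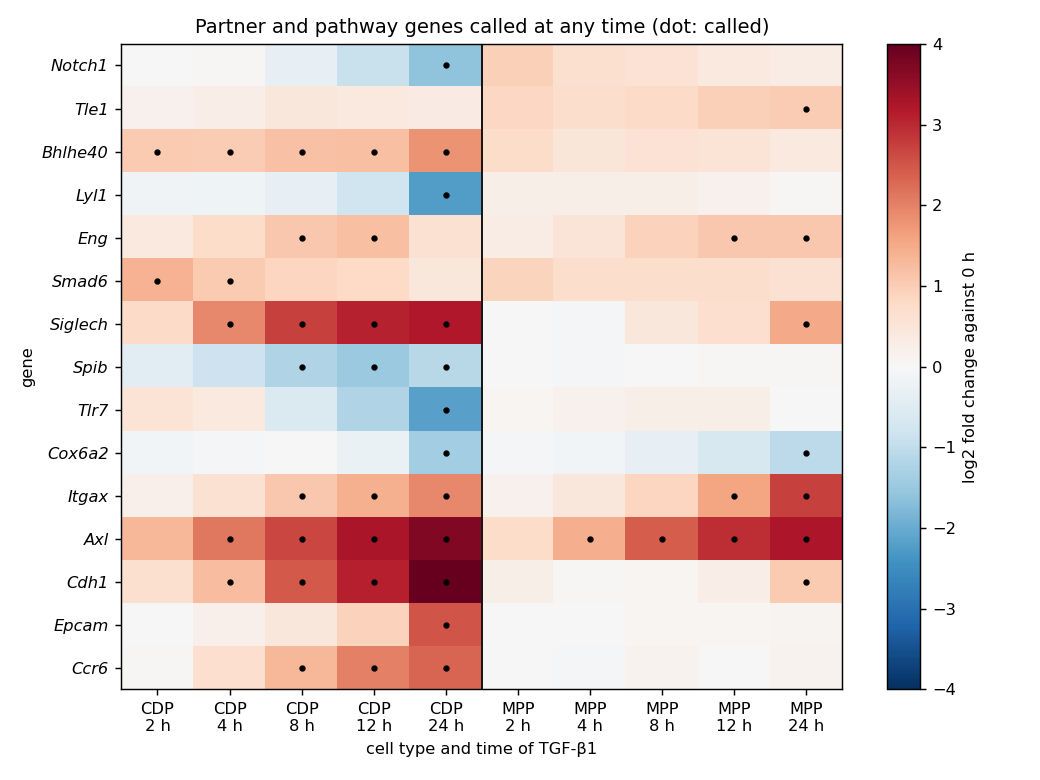
log2 fold change against 0 h (colour, from −4 in blue to 4 in red) of the 15 partner and pathway genes called at some time (rows) in CDP and MPP at each time of TGF-β1 (columns). A dot marks a called change. Bhlhe40 carries a dot at all 5 times in CDP, Notch1 and Lyl1 at 24 h in CDP only, and Tle1 at 24 h in MPP only.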

How the data were processed

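RNA of MPP and CDP was hybridised to 36 Affymetrix Mouse Gene 1.0 ST arrays, 3 for each of 12 groups. The authors summarised the scans to log2 intensities per probe set with RMA in Affymetrix Power Tools, as the submitters' processing notes name them, and deposited these log2 values; versions are not given in the sources used here. The study's methods name FARMS for normalisation and betr for time courses. Neither was used here, and the deposited RMA values are not those that FARMS gives. The labels' protocol names 6 h where the titles, descriptions and the study give 8 h, which was used, and the labels and the study name different RNA kits.

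Of 35556 probe sets, 21789 had a single gene symbol in the platform annotation, 1621 had several and 12146 had none. The probe set with the highest mean was kept for each of 999 genes with several, which left 19938 genes. Linear models were fitted with limma 3.58.1 in R 4.3.3, with the replicate number as a block within each cell type as in the study's methods and no block for the level in CDP over MPP. The labels number the replicates. Residuals of same-numbered arrays correlated with those of their own 0 h array by at least 0.212 in CDP and 0.189 in MPP. Over all same-numbered CDP pairs the lowest value was −0.128 and the median 0.481. Differently numbered CDP pairs had a median of −0.298 and reached 0.413. Between the cell types at the same time, same-numbered arrays had a median of 0.161, and differently numbered ones −0.090. The residuals of a group sum to 0, which pushes differently numbered pairs below 0 where same-numbered ones lie above it. The negative medians are therefore no separate evidence of pairing. P-values were adjusted by Benjamini-Hochberg over all genes of a contrast. The number of arrays limits the precision, and p-values set each change against the residual spread between these arrays. In simulated data with 200 of 19938 genes changed, 98.5% were recovered for CDP at 24 h against 0 h, 98% for the response difference and 98.5% for the level, with 0 false calls. The size of the planted changes is not given here, so these shares do not describe changes under the fold limit.

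The 10 genes, the gene lists and the tests were chosen with earlier results of these data known. Named were all 10 genes, every list gene called against 0 h, and the 3 genes most like each member called against 0 h, by Pearson correlation over group means. The E protein genes Tcf3, Tcf4 and Tcf12 were named outside this rule, after their values were seen. Alternatives were no replicate block (with a block for the level), each replicate number or array left out, median-centred arrays, dim genes (lowest 30%) left out, every probe set on its own, trended robust variances, 1 fit over all 36 arrays and calls by adjusted p alone. Promoters came from RefSeq (GRCm38.p6). No genome build is given for the arrays, so no gene coordinates are given beyond those of the promoters.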

Additional observations from a re-analysis of the deposited data

Results flagged for a closer look

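The responses of 3 genes differed between the cell types by the limma test of the difference itself. For Hes1 the change at 24 h in CDP minus that in MPP was −1.23 (SE 0.15, adjusted p = 1.71e-06), with 0.44 in CDP and 1.67 in MPP, and all 3 replicates were higher at 24 h in both. For Id2 the difference at 24 h was 1.01 (SE 0.09, adjusted p = 1.46e-08), with 0.78 in CDP, higher in 3 of 3 replicates, and −0.23 in MPP. For Id3 it was 1.27 at 12 h (SE 0.22, adjusted p = 0.000433) and 1.08 at 24 h (SE 0.22, adjusted p = 0.000887), with the changes in CDP at 0.75 and 0.54 and those in MPP at −0.52 and −0.54. The third CDP replicate of Id3 stood at 10.02 before TGF-β1, against 8.52 and 8.85 in the other two, and had the highest interferon-stimulated genes of the 3 at 0 h. Their part in the Id3 difference was not tested.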

How the results depend on the processing

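No called value changed its direction under any alternative. Without the fold limit, at an adjusted p under 0.01 and then under 0.05, members called against 0 h numbered 3 and 5 in CDP (0 with the limit) and 3 and 6 in MPP (1 with it). Over the time course they numbered 2 and 3 in CDP (0 with the limit) and 2 and 3 in MPP (1), and between 24 h and 2 h 2 and 2 in CDP (0) and 3 and 3 in MPP (1). The level in CDP over MPP then gave 7 at under 0.05 (4 with the limit), and the partner and pathway lists 57 and 65 genes (15 with it). By an adjusted p under 0.01 alone, 20.6% of all genes passed the time course test in CDP and 12.9% in MPP. At 24 h against 0 h the shares were 19.8% and 9.71%. Shares at under 0.05 are not given, so the larger counts are no result about the members or the lists. Leaving out a replicate number or an array gave 0 to 1 called members in CDP against 0 h, the 1 being Id3 at 12 h without replicate 3 or without its 0 h array. In the fit with no replicate block, 168 member contrasts kept their side of the limits and 2 did not, the Id3 response difference at 12 h (adjusted p = 0.0957) and 24 h (0.0873). With a block for the level, all 60 contrasts kept theirs. Median-centring, which moved the median of all genes by less than 0.1, put the Id2 response difference at 24 h at 0.998538, just under the limit of 1, and left the other member calls in place. Leaving out dim genes, trended robust variances, every probe set on its own and 1 fit over all arrays changed no call of a member under the fold limit. With 3 arrays per group, values near the fold limit (Hes1 in MPP at 8 h, Id2 at 24 h) fall on either side of it. Dim genes such as Hey2 limit what a change can show.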

Other observations

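Over the 6 group means of CDP Id2 and Hes1 had a Pearson r of 0.989, and over those of MPP an r of −0.579. These means share a 0 h group and an order in time, so both are descriptions. In MPP the gene among the repressors whose 6 means were most like those of Hes1 was Hes6 (r = 0.948), and its change at 24 h was 0.22 where that of Hes1 was 1.67.

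The mean log2 intensity of 5 measured B cell genes was 7.22 to 7.51 on CDP arrays and 7.12 to 7.23 on MPP arrays, and that of 5 T and NK cell genes 6.29 to 6.46 and 6.20 to 6.37. For 6 stromal genes it was 7.38 to 7.59 on CDP arrays and 7.57 to 7.86 on MPP arrays, and for 4 measured erythroid and megakaryocyte genes 7.83 to 9.20 and 8.17 to 9.29. The 6 endothelial genes averaged 6.68 to 7.45 on CDP arrays and 6.63 to 6.76 on MPP arrays, with the highest CDP value at 2 h.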
